A study of Mus musculus with 20 samples.

Results

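*Gpnmb*, which encodes glycoprotein nmb, was followed here through the spinal cord cells of sham mice and of mice with a spinal cord injury (SCI), across 14 clusters of cells and 6 libraries. It is 1 of the 16003 genes of the deposited count table. It was selected on these same counts, since its unique molecular identifiers (UMIs, each standing for 1 captured transcript) and its share of positive cells by cluster and library were known when it was picked. Its levels are thus a description, and no test was made on them.

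The libraries are single cell suspensions of 1 cm of cord around the T9 level from female C57BL/6J mice, bought at 8 to 10 weeks of age, that had a laminectomy alone (sham) or a T9 contusion. Cords of SCI mice were taken at 7 or 28 days post-injury (dpi), whereas the sham libraries carry both times in their labels. The diet was vehicle chow, or chow with PLX5622 (1200 ppm per the labels), an inhibitor of the *Csf1* receptor that depletes microglia, and it was given from 2 weeks before surgery until the cord was taken. The methods word this dose differently from the labels, and which wording holds was not settled. Each of the 6 conditions is 1 library that pooled several mice, so no difference between conditions has a replicate check. PLX5622 can also act on other cells that use this receptor, which limits it as a model of microglia loss alone.

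Glycoprotein nmb is a type I transmembrane glycoprotein of endosomes, lysosomes and the cell surface, and was first described in melanoma cells, melanocytes, osteoclasts and dendritic cells. In phagocytes its transcript is known to increase with lysosomal load, under transcription factors of the MiT-TFE family. Its ectodomain can be shed by the protease Adam10 and bind to Cd44, Sdc4 and other surface proteins. In injured or demyelinated nervous tissue it is known as a gene of lipid-laden ("foamy") macrophages and of disease-associated microglia. The gene lies on the plus strand of chromosome 6, at 49036518 to 49058182 in the RefSeq annotation of GRCm38, the build that the labels name. Its longest transcript in the GENCODE annotation of that build has 11 exons and 3701 bases, and the gene there runs from 49036546 to 49070929.

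The count table held 21016 cells, from 492 to 9846 per library, with a median of 2268.5 to 5127 UMIs per cell. Of all barcodes, 44 occurred in 2 libraries, in 88 cells that held 1103 *Gpnmb* UMIs, and no ratio or share of MDMs or microglia moved beyond its interval without them. The deposited clusters carry numbers only and were named here from 80 markers of 14 cell types, of which 77 were detected and 70 had their highest level in the cluster that took their name. *Gpnmb* was not among the markers. The cluster called monocyte-derived macrophages (MDMs) was named from *Spp1*, *Fabp5*, *Lgals3*, *Ms4a7*, *Mmp12*, *Cd36* and *Arg1*, of which 5 of 7 were highest there. The authors had used *Gpnmb* among other genes to name the same cluster, and the clusters were made from the expression of these same cells, so a high level of *Gpnmb* in MDMs is no finding. The MDM cluster of sham mice went against its name in part. Its 6 microglial markers (*P2ry12*, *Tmem119*, *Siglech*, *Sall1*, *Gpr34* and *Cx3cr1*) summed to 3803 counts per 1000000 UMIs (CPM) in vehicle-fed and 6312 CPM in PLX5622-fed sham mice, against 627 to 1673 CPM in MDMs of the 4 SCI libraries.

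The *Gpnmb* transcript was concentrated in 1 cluster. MDMs held 222237 of its 243105 UMIs (91.4%), and 5394 of 6791 MDMs (79.4%, 78.4 to 80.4%) had at least 1. Their summed level over all libraries was 5809 CPM (5785 to 5833). The range beside a value is its 95% interval, taken as exact Poisson where the value is a CPM, as exact binomial where it is a ratio and as Clopper-Pearson where it is a share of cells, and such an interval covers counting error only.

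Over all libraries, the clusters below the MDMs in order of level were erythroid cells with 1982 CPM, B cells with 1496 CPM and intermediate progenitors, a cluster of dividing cells, with 1360 CPM. Endothelial cells stood at 711 CPM, monocytes at 520 CPM and T cells at 422 CPM. Ependymal cells, neutrophils and astrocytes followed with 416, 382 and 379 CPM, and oligodendrocyte lineage cells with 250 CPM. Microglia came 12th of 14 with 162 CPM (156 to 168), above leptomeningeal cells with 117 CPM and pericytes with 44.8 CPM. The intervals of T cells, ependymal cells, neutrophils and astrocytes overlapped, and the other neighbours in this order did not overlap. These sums mix libraries that give each cluster unequal shares of its cells, which sets part of the order. Astrocytes, of which 310 and 204 cells came from the sham libraries, stood at 2057 CPM (1855 to 2275) at 7 dpi and 939 CPM (848 to 1038) at 28 dpi under vehicle, 4th and 3rd of the clusters there, although the interval at 28 dpi overlapped that of the erythroid and B cells. The plot of level by cluster and library gives each library apart.

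**Figure D1:**
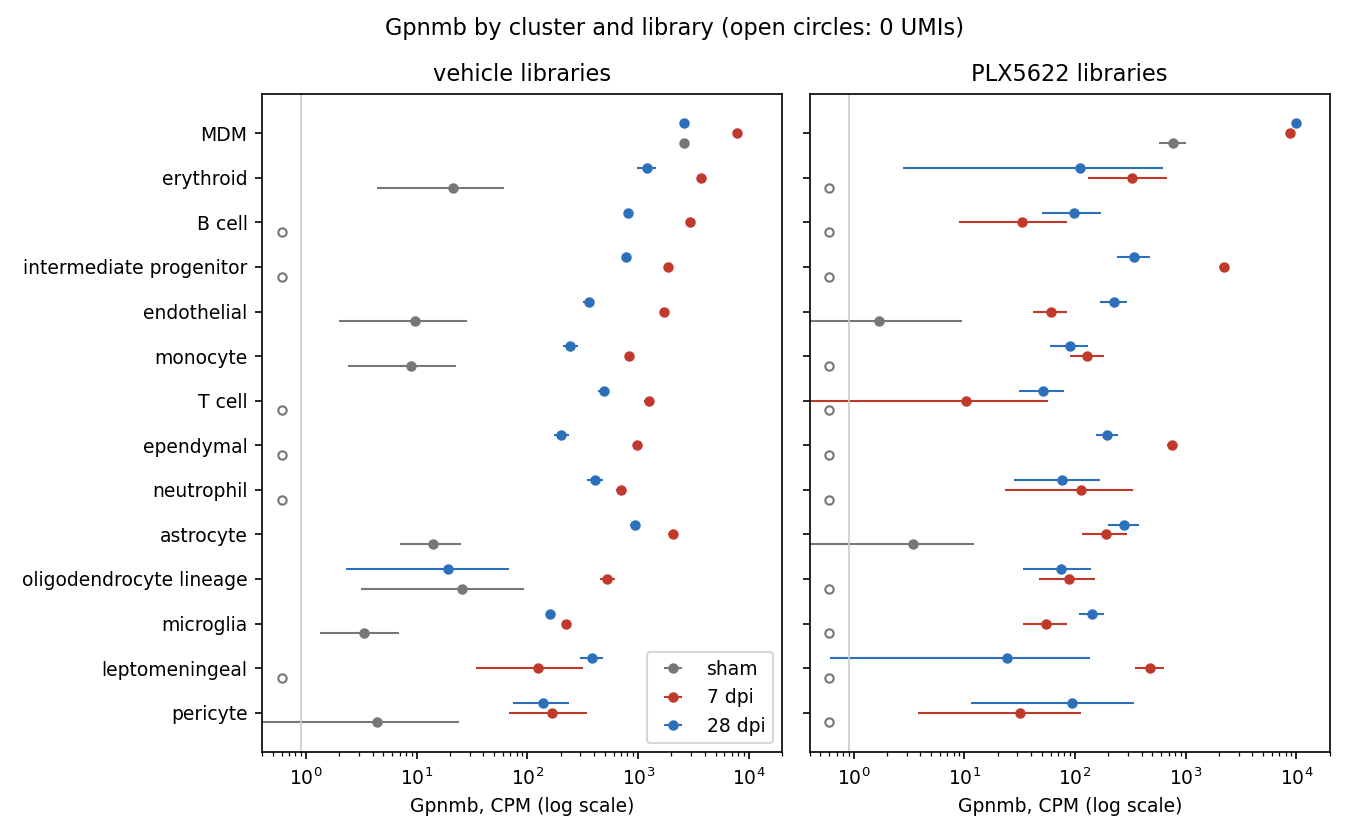
*Gpnmb* level (x axis, CPM on a log scale) in the 14 clusters (y axis, in order of their level over all libraries), for vehicle libraries (left) and PLX5622 libraries (right). Filled points are sums of UMIs with exact Poisson 95% intervals, colours give the time, and open circles at the left edge are groups with 0 UMIs. In MDMs the 7 dpi vehicle point lies at 7783 CPM and the 28 dpi vehicle point at 2591 CPM, while the SCI points under PLX5622 lie at 8711 and 9815 CPM.

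In MDMs of vehicle-fed mice, *Gpnmb* was counted with 3719 UMIs in 185 sham cells, 154702 UMIs in 3023 cells at 7 dpi and 35921 UMIs in 3313 cells at 28 dpi. The corresponding levels were 2622 CPM (2539 to 2708), 7783 CPM (7744 to 7822) and 2591 CPM (2564 to 2618). The level at 7 dpi was thus the highest of the 3, and sham and 28 dpi could not be told apart within counting error. In MDMs of PLX5622-fed mice, the counts were 50 UMIs in 9 sham cells, 15213 UMIs in 100 cells at 7 dpi and 12632 UMIs in 161 cells at 28 dpi. These gave 770 CPM (571 to 1015), 8711 CPM (8573 to 8850) and 9815 CPM (9645 to 9988). Ordered by summed level, the 28 dpi PLX5622, 7 dpi PLX5622 and 7 dpi vehicle MDMs stood above the rest with intervals that did not overlap, then came sham vehicle and 28 dpi vehicle, which overlapped, and last sham PLX5622, whose 50 UMIs all came from 1 of 9 cells. The order of the PLX5622 libraries after SCI turned with each cell weighted alike, at 7468 CPM at 7 dpi and 7131 CPM at 28 dpi.

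The sham level rested on few cells. Of the 185 MDMs of sham vehicle cords, 33 (17.8%, 12.6 to 24.1%) had a *Gpnmb* UMI, and the 10 cells with the most held 89.0% of all UMIs. With each cell weighted alike, the sham level was 969 CPM, against 6670 CPM at 7 dpi and 2256 CPM at 28 dpi. By shares of cells, the gap was wide at both times, since 88.6% (87.4 to 89.7%) of MDMs at 7 dpi and 74.3% (72.8 to 75.8%) at 28 dpi had a UMI. After each cell was thinned to 1000 UMIs, which leaves out 10, 15 and 55 shallower cells, the expected shares were 12.4%, 76.3% and 56.5%.

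The log2 ratio of CPM at 7 dpi over sham was 1.57 (1.52 to 1.62) by sums and 2.78 with each cell weighted alike. At 28 dpi over sham it was -0.017 (-0.066 to 0.032) by sums, and 1.22 with cells weighted alike. The methods name an upper limit of genes per cell, but cells above it are in the count table. There were 716 cells with more than 3000 genes, and these included 32 sham vehicle MDMs with 3561 of the 3719 UMIs. Among MDMs with at most 3000 genes, a limit applied after the data were seen, the sham level was 187 CPM and the log2 ratios were 5.30 at 7 dpi and 3.78 at 28 dpi. The size of the difference from sham, and at 28 dpi its presence, therefore depended on a small number of deep cells.

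In vehicle-fed mice the level at 28 dpi was below that at 7 dpi under every setting tried. The log2 ratio of 28 dpi over 7 dpi was -1.59 (-1.60 to -1.57), which is higher than that of only 1.84% of the 9140 genes that had 100 or more UMIs over the pair of libraries, and all 9 alternatives lay between -1.62 and -1.52. The median number of *Gpnmb* UMIs per MDM was 22 at 7 dpi and 3 at 28 dpi, with a median depth of 5777 and 3875 UMIs per cell. MDMs with 100 or more *Gpnmb* UMIs made up 16.0% of cells at 7 dpi (484 cells) and 1.18% at 28 dpi (39 cells). The cell with the most held 914 and 283 UMIs, respectively.

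Under PLX5622 the decline was not seen in the sums. The log2 ratio of 28 dpi over 7 dpi was 0.17 (0.14 to 0.21) in MDMs of PLX5622-fed mice, but it was -0.067 with each cell weighted alike, -0.13 after thinning and -0.52 among cells with at most 3000 genes. The direction of this ratio thus turned with the weighting of cells, and no direction is given for it. The median MDM held 76 *Gpnmb* UMIs at 7 dpi and 10 at 28 dpi, at a median depth of 15945 and 6843 UMIs. Per 10000 UMIs of the cell, these medians were 66.6 and 30.1, against 43.8 and 9.74 under vehicle.

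**Figure D2:**
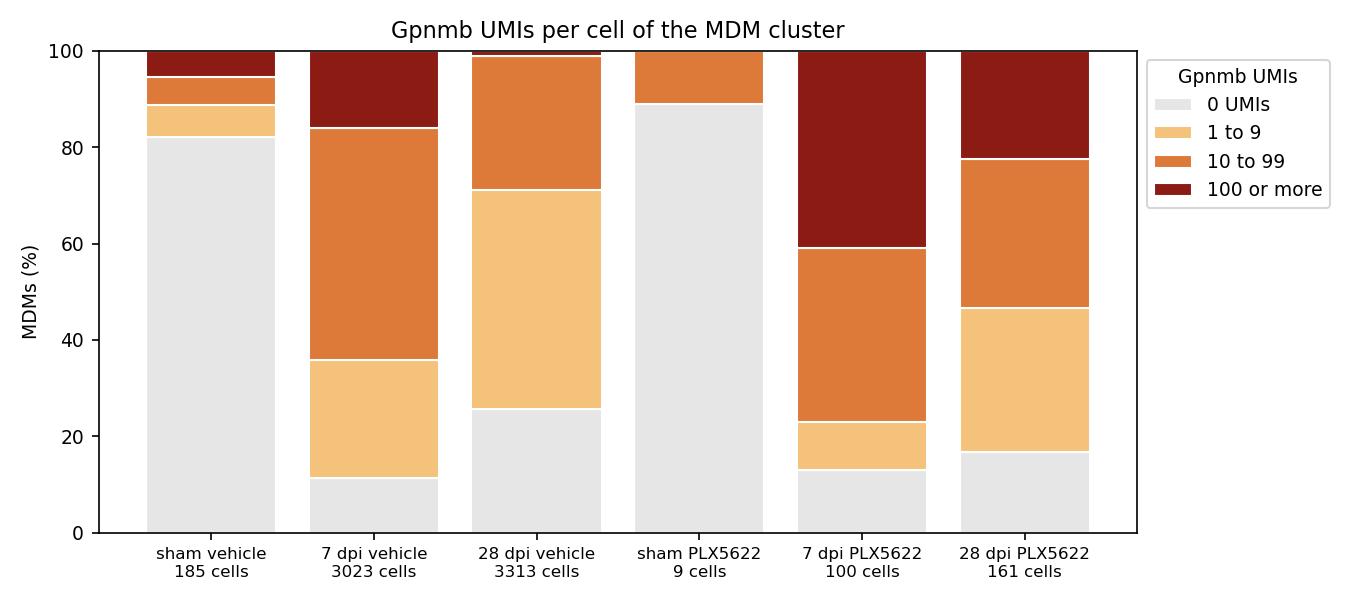
Share of MDMs (y axis, %) of each library (x axis, with the number of cells) that held 0, 1 to 9, 10 to 99, or 100 or more *Gpnmb* UMIs, as stacked parts of a bar. Cells with 100 or more UMIs were 16.0% at 7 dpi and 1.18% at 28 dpi under vehicle, and 41.0% and 22.4% under PLX5622, in cells of unequal depth.

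At 28 dpi, MDMs of PLX5622-fed mice had a higher *Gpnmb* level than those of vehicle-fed mice by sums and with each cell weighted alike. The log2 ratio of PLX5622 over vehicle was 1.92 (1.89 to 1.95), higher than that of 99.5% of 7635 genes, and 1.66 with each cell weighted alike. A *Gpnmb* UMI was found in 83.2% (76.5 to 88.6%) of MDMs under PLX5622 and in 74.3% under vehicle, or 69.4% and 56.5% after thinning. The ratio was smaller among cells with at most 3000 genes, at 1.18, and 26 of the 161 PLX5622 MDMs lay above that limit and held 63.1% of their UMIs.

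At 7 dpi the levels under the diets were close. The log2 ratio of PLX5622 over vehicle was 0.16 (0.14 to 0.19), which lies within the range of ratios of ordinary genes, 67.6% of 8295 genes being lower. The share of MDMs with a UMI was 87.0% (78.8 to 92.9%) under PLX5622 and 88.6% under vehicle, and 76.9% and 76.3% after thinning. With a single pool per diet, a difference of this size has no error to be read against.

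The depth of the cell moved with its *Gpnmb* level, but not steadily, so MDMs were also compared within bins of total UMIs. After SCI, cells under 2000 UMIs stood above those from 2000 to under 5000 UMIs. The levels were 9391 against 4587 CPM at 7 dpi and 2626 against 1640 CPM at 28 dpi under vehicle. At 28 dpi under PLX5622 they were 8175 against 4193 CPM. In sham vehicle MDMs, 3667 of 3719 *Gpnmb* UMIs came from the 45 cells with 10000 or more UMIs, at 5066 CPM, and the bin from 5000 to under 10000 UMIs held 98.4 CPM. In SCI libraries no bin of at least 20 cells was under 1640 CPM. The 28 dpi vehicle level was below the 7 dpi vehicle level in each of the 4 bins, by log2 ratios of -1.84, -1.48, -0.99 and -1.25 from the shallowest to the deepest cells.

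Within bins, the diet difference at 28 dpi had the same sign as the sum in all 4, with log2 ratios of 1.64 (1.43 to 1.84), 1.35 (1.23 to 1.47), 0.29 (0.22 to 0.37) and 1.50 (1.44 to 1.55). The share of MDMs with a UMI did not go with the level in the deeper bins, where it was 78.0% under PLX5622 and 86.7% under vehicle from 5000 to under 10000 UMIs, and 91.3% and 96.9% in the deepest bin. At 7 dpi, PLX5622 left at least 20 MDMs only in the deepest bin, and there the log2 ratio of PLX5622 over vehicle was -0.37 (-0.40 to -0.35), opposite in sign to the sum. In the same deepest bin, 28 dpi vehicle over sham was -0.035 (-0.10 to 0.031), so that the few deep sham MDMs and the deep MDMs at 28 dpi were level in *Gpnmb* within counting error, whereas in the bin from 5000 to under 10000 UMIs the ratio was 5.12 (4.72 to 5.56).

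**Figure D3:**
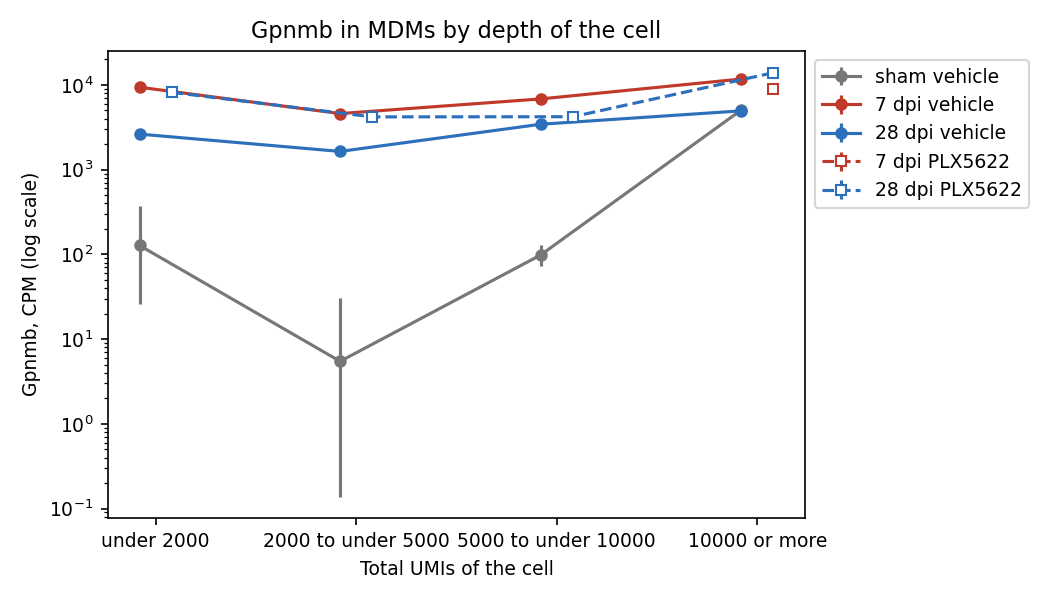
*Gpnmb* level of MDMs (y axis, CPM on a log scale, exact Poisson 95% intervals) in 4 bins of total UMIs of the cell (x axis), for bins with at least 20 cells, by library. The sham vehicle line stays at or below 127 CPM in the first 3 bins and reaches 5066 CPM in the last, while the SCI libraries lie between 1640 and 13935 CPM throughout.

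Microglia, the resident macrophages of the cord, held little *Gpnmb* in sham cords. In vehicle-fed mice, 7 UMIs were counted in 674 sham microglia (3.34 CPM, 1.34 to 6.88), 1515 UMIs in 2154 microglia at 7 dpi (224 CPM, 213 to 236) and 1263 UMIs in 3974 microglia at 28 dpi (159 CPM, 151 to 168). In PLX5622-fed mice there were 0 UMIs in 29 sham microglia, where a floor of 3 counts stands at 21.2 CPM and at 10.3% of cells with a UMI (upper 95% limits 26.0 CPM and 11.9%), 21 UMIs in 61 microglia at 7 dpi (54.8 CPM) and 61 UMIs in 126 microglia at 28 dpi (142 CPM). Microglia were thus above sham in both SCI libraries under vehicle, where the log2 ratio was 6.07 (5.02 to 7.39) at 7 dpi. At 28 dpi it was 5.58 (4.53 to 6.89), and both were taken against 7 UMIs in sham.

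The same difference from sham was seen in 4 clusters named for cells other than macrophages. The paper places perivascular macrophages in its endothelial cluster and supraependymal macrophages in its ependymal cluster, so those clusters may hold macrophages. A *Gpnmb* UMI was found in 33.8% of microglia at 7 dpi under vehicle, but also in 30.7% of T cells, 41.1% of B cells, 33.6% of endothelial cells and 32.4% of ependymal cells, at median depths of 2903 UMIs for microglia and 1510 to 2409 UMIs for the others. Thinned to 1000 UMIs, the share was 14.8% in microglia and 18.3% to 34.2% in those 4 types. In sham vehicle cords none of the same 4 types exceeded 0.711% after thinning.

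At 28 dpi under vehicle, the thinned share of microglia was 11.2%, within the range of 8.74% to 21.1% of the 4 types. Under PLX5622 it was 4.79% at 7 dpi, against 0.605% to 6.00%, and 11.3% at 28 dpi, against 4.72% to 15.2%. Ependymal cells alone set the top of the range under PLX5622, and T cells, B cells and endothelial cells were below microglia at both times. The share of microglia with a UMI was therefore within or below the range of these 4 clusters in all 4 SCI libraries. No expression by microglia is read from this share, and none is excluded, since macrophages within the comparison clusters were not set apart. The comparison types were themselves uneven, since 18.9% of B cells at 7 dpi under vehicle had 10 or more UMIs, against 0.882% of microglia. The ratios of microglia between libraries are given as values only. They were -0.49 (-0.60 to -0.39) for 28 dpi over 7 dpi under vehicle, -2.03 (-2.73 to -1.42) for PLX5622 over vehicle at 7 dpi and -0.17 (-0.56 to 0.20) for the same at 28 dpi.

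**Figure D4:**
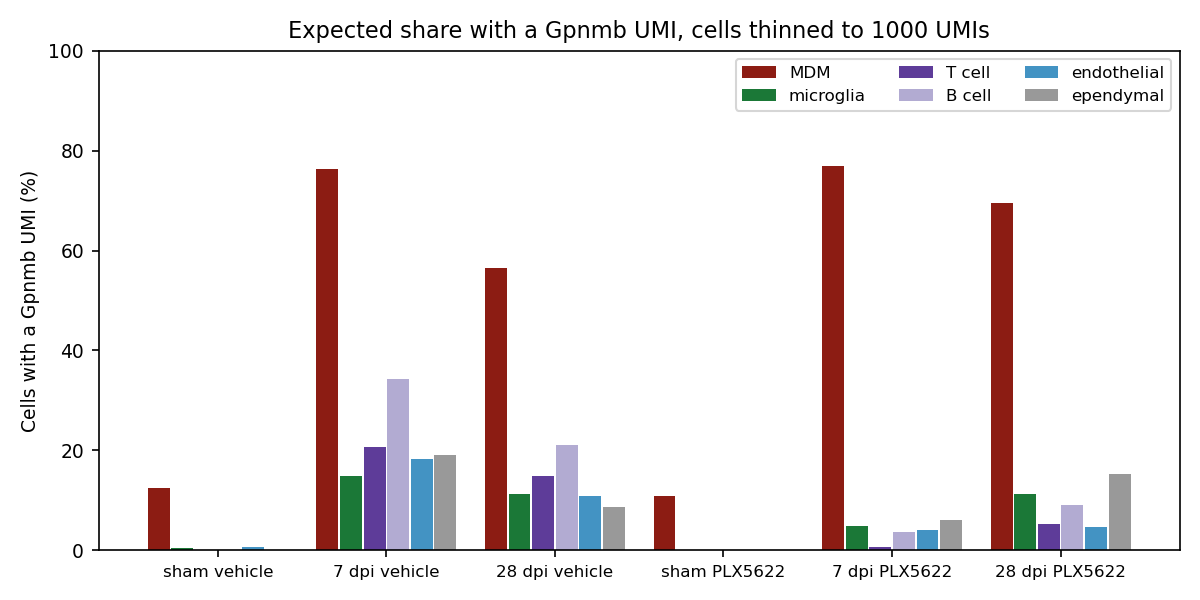
Expected share of cells with a *Gpnmb* UMI (y axis, %) after each cell is thinned to 1000 UMIs, by library (x axis). Shown are MDMs, microglia and 4 clusters named for cells other than macrophages. MDMs reach 56.5% to 76.9% in the SCI libraries, and microglia reach at most 14.8%, inside or below the range of the other 4 types.

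*Gpnmb* outside the MDMs was itself uneven. At 7 dpi under vehicle, 245 of 4416 cells outside the MDM cluster (5.55%) had 10 or more *Gpnmb* UMIs and held 83.9% of the UMIs found outside, and at 28 dpi 83 of 6533 cells (1.27%) held 53.4%. Microglia contributed 19 and 7 of these cells, B cells 36 and 11, and intermediate progenitors 79 and 24. No cell outside the MDMs reached 10 UMIs in either sham library. Of these high cells, a doublet caller marked 22.9% at 7 dpi and 38.6% at 28 dpi, against 5.07% and 8.27% of all cells outside the MDMs, and the part of doublets in these values was not tested. Without the high cells, the level outside the MDMs was 181 CPM at 7 dpi and 152 CPM at 28 dpi under vehicle, and 5.38 CPM in sham.

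The proportion of *Gpnmb* to *Spp1* (osteopontin, a secreted protein and a marker of MDMs here) also varied by cluster. At 7 dpi under vehicle there were 37.7 *Gpnmb* UMIs per 100 *Spp1* UMIs in MDMs, 34.4 in T cells, 45.8 in endothelial cells and 51.3 in B cells, but 20.0 in ependymal cells and 6.82 in microglia. At 28 dpi the proportion was 17.2 in MDMs, 12.8 in T cells, 12.7 in endothelial cells, 12.7 in B cells and 4.91 in microglia. The microglial proportion was below that of the other types named here at both times, in a cluster where *Spp1* was counted with 22214 and 25747 UMIs.

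MDMs held most of the *Gpnmb* UMIs of whole libraries. Summed over all cells, the gene stood at 522 CPM in sham, 4760 CPM at 7 dpi and 1450 CPM at 28 dpi under vehicle, and at 20.3, 3714 and 3510 CPM under PLX5622. MDMs held 89.2% to 99.2% of the *Gpnmb* UMIs of every library, while their part of all UMIs ran from 2.49% in sham PLX5622 to 55.7% at 7 dpi under vehicle. In these sums alone, the part of UMIs that MDMs held and the *Gpnmb* level within MDMs cannot be told apart. Taken apart at 28 dpi, MDMs held 34.8% of all UMIs under PLX5622 and 49.9% under vehicle. Their levels were 9815 and 2591 CPM.

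Across MDMs of 1 library, the genes most like *Gpnmb* were *Psap*, *Lyz2*, *Fabp5* and *Ctsb*. Likeness is Pearson's r of ln(1 + UMIs per 10000) over cells, averaged over the 7 dpi and 28 dpi vehicle libraries, among 1871 genes with a UMI in at least 20% of MDMs of both. The cells of a library share its preparation and differ in depth, with which *Gpnmb* had an r of 0.20 at 7 dpi and 0.18 at 28 dpi, so these values are a description. *Psap*, the precursor of lysosomal saposins, led with r = 0.75 at 7 dpi and 0.38 at 28 dpi. *Lyz2*, a lysozyme, followed with 0.69 and 0.42, and *Fabp5*, a fatty acid binding protein, with 0.71 and 0.35. *Ctsb*, a lysosomal protease, had 0.52 and 0.46.

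The other 6 of the 10 most alike genes were *Msrb1*, *Wfdc17*, *Smpdl3a*, *Ms4a7*, *Pld3* and *Lgals3*, with 0.38 to 0.58 at 7 dpi and 0.14 to 0.32 at 28 dpi. Among them *Msrb1* reduces oxidised methionine, *Smpdl3a* and *Pld3* are enzymes of the endolysosomal or secreted compartment, and *Lgals3* is galectin-3. All 10 had a positive r in the 2 PLX5622 libraries after SCI too, from 0.25 to 0.74, which the choice of genes did not use. Each r was higher at 7 dpi than at 28 dpi under vehicle for all 10.

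At the other end were *Tmsb4x*, *Cst3*, *Sparc*, *Cx3cr1* and *Cd81*, with r from -0.68 to -0.59 at 7 dpi and -0.39 to -0.22 at 28 dpi. Of these, *Cx3cr1* (the fractalkine receptor), *Sparc*, *Cst3* (cystatin C, a protease inhibitor) and *Cd81* are abundant in homeostatic microglia. In the PLX5622 libraries after SCI the 5 values ran from -0.75 to -0.37. *Csf1r*, the receptor that PLX5622 inhibits, had r = -0.59 and -0.21, and *Lpl*, lipoprotein lipase, -0.47 and -0.28, although *Lpl* is a lipid-associated gene like *Fabp5*.

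**Figure D5:**
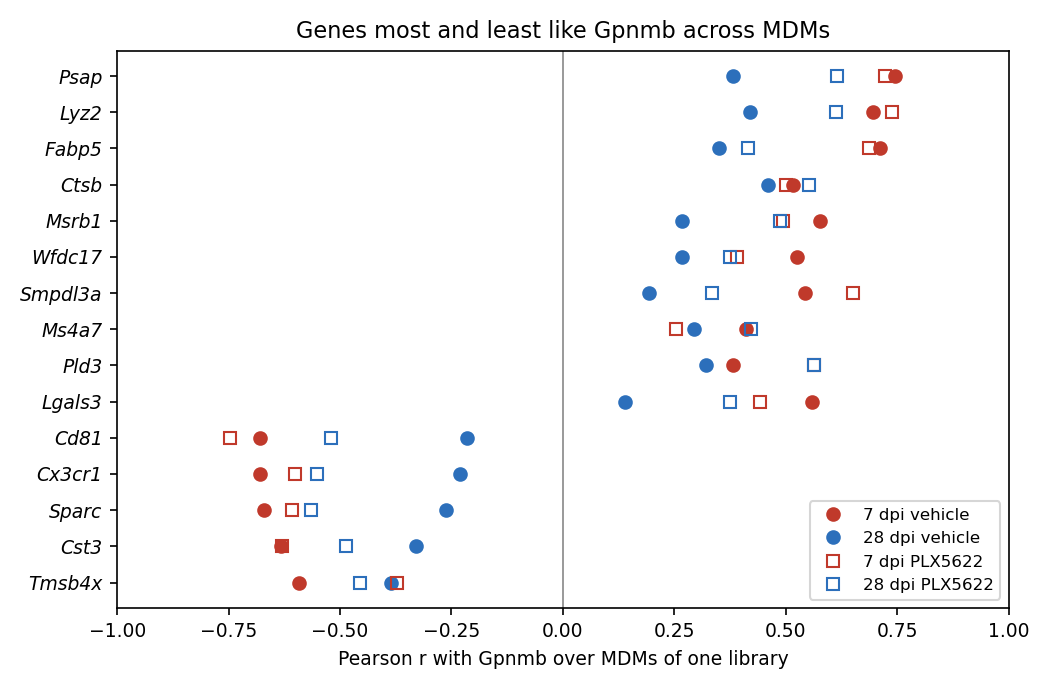
Pearson's r with *Gpnmb* over MDMs of 1 library (x axis) for the 10 genes most like it and the 5 least like it in the vehicle libraries (y axis), at 7 dpi (red) and 28 dpi (blue), under vehicle (filled circles) and PLX5622 (open squares). The 10 upper genes have positive values and the 5 lower genes negative values in all 4 libraries, and values at 28 dpi under vehicle lie nearest to 0 for all 15 genes except *Ms4a7* and *Tmsb4x*.

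The same likeness can be put as sums over cells split by their *Gpnmb* count. *Psap*, *Lyz2*, *Fabp5* and *Csf1r* were named with their r over these same vehicle cells known. Their direction at 7 dpi was thus fixed in advance and is no further support. At 7 dpi under vehicle, the 1941 MDMs with 10 or more *Gpnmb* UMIs held *Fabp5* at 8145 CPM, *Lyz2* at 3728 CPM and *Psap* at 6547 CPM, and the 346 MDMs with 0 *Gpnmb* UMIs held them at 1132, 728 and 2002 CPM. *Csf1r* was at 350 CPM in the former and 1250 CPM in the latter, and *P2ry12*, a purinergic receptor of homeostatic microglia, at 26.7 and 98.8 CPM. The 21 high MDMs of sham vehicle cords differed in the same direction by these genes, with *Fabp5* at 6028 CPM against 255 CPM, *Csf1r* at 518 against 2265 CPM and *P2ry12* at 37.0 against 564 CPM in the 152 sham MDMs without a *Gpnmb* UMI. Their median depths were 18567 and 5262.5 UMIs, and the part of depth in this difference was not tested.

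Over the 48 groups of cells formed by cluster and library with at least 50 cells each, the gene most like *Gpnmb* was *Spp1* (Pearson's r of log2(CPM + 10) = 0.91), ahead of *Pld3* with 0.87 and *Fabp5* with 0.85 among 12851 genes. *Atp6v0d2*, a subunit of the proton pump of lysosomes and osteoclasts, and *Gla*, a lysosomal galactosidase, both had 0.85, and *Cstb*, cystatin B, 0.84. *Igf1*, *Fblim1*, *Htr2b* and *Gpr137b* completed the 10 with 0.80 to 0.82. Without the 5 MDM groups, the 10 values lay between 0.70 and 0.89 over 43 groups. The groups of a library share its free RNA, and their UMI totals are unequal.

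Partners of the *Gpnmb* protein did not share a pattern in MDMs. Its paralog *Pmel*, a melanosome protein, was near 0, with 0 to 0.151 CPM in each library. At 7 dpi over sham under vehicle, *Itgav*, an integrin, had a log2 ratio of 1.09 (0.74 to 1.46). *Cd44*, an adhesion receptor, was at 0.22 (-0.07 to 0.52), *Sdc4*, a proteoglycan, at -0.41 (-0.86 to 0.07), and the sheddase *Adam10* at -0.13 (-0.35 to 0.09). At 28 dpi over sham, *Sdc4* was at -0.91 (-1.38 to -0.41) and *Itgav* at 0.21 (-0.15 to 0.60).

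For 28 dpi over 7 dpi under vehicle, *Itgb3*, an integrin, was at 1.25 and *Itgav* at -0.87. For PLX5622 over vehicle at 7 dpi, *Cd44* stood at 0.87 (0.68 to 1.06), *Sdc4* at 0.97 (0.61 to 1.32) and *Itgb5*, an integrin, at -0.18. At 28 dpi, *Cd44* was at 0.50 (0.22 to 0.78) under PLX5622 over vehicle. The receptor and the proteoglycan were thus both higher under PLX5622 at 7 dpi by more than their counting error.

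The transcription factors known to drive the gene were scarce. *Mitf* stood at 55.7, 35.6 and 40.7 CPM in MDMs of sham, 7 dpi and 28 dpi vehicle cords, *Tfe3* at 36.7, 37.3 and 37.1 CPM and *Tfeb* at 18.3, 24.4 and 23.0 CPM. *Tfec* had at most 5.15 CPM. For the other 3 factors 0 ratios were past 2-fold in the 5 comparisons. Among all genes that reached 100 UMIs over the pair of libraries, 4.09% were past 2-fold higher and 11.0% lower at 7 dpi over sham (8303 genes), and 1.53% higher and 5.63% lower at 28 dpi over sham (7714 genes). For 28 dpi over 7 dpi these shares were 3.29% and 3.60%, and for PLX5622 over vehicle they were 1.83% and 2.17% at 7 dpi and 2.33% and 2.48% at 28 dpi. With so few factors, a count of 0 beside such shares is no result about them. *Mitf* was the lowest and *Tfeb* the highest over sham, with log2 ratios of -0.65 and 0.41 at 7 dpi and of -0.45 and 0.33 at 28 dpi. The intervals of *Mitf* in sham (44.1 to 69.4 CPM) and at 7 dpi (33.0 to 38.3 CPM) did not overlap. For 28 dpi over 7 dpi, *Tfeb* was at -0.082 and *Mitf* at 0.19. For PLX5622 over vehicle they ran from *Tfe3* at -0.38 to *Tfeb* at 0.59 at 7 dpi, and from *Tfeb* at -0.43 to *Tfe3* at -0.055 at 28 dpi. *Tfeb* at 7 dpi was at 36.6 CPM (28.2 to 46.8) under PLX5622 and at 24.4 CPM (22.2 to 26.6) under vehicle. These are levels of transcript, and say nothing of the activity of the proteins.

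Among 13 genes known as targets of these factors in osteoclasts or lysosomes, *Acp5*, tartrate-resistant acid phosphatase, and *Atp6v0d2* had their highest level of the vehicle libraries at 7 dpi, as *Gpnmb* did. So did *Ctsk*, cathepsin K, *Atp6v1h*, *Atp6v0d1*, *Clcn7* and *Gla*, whereas the remaining genes of the list were highest in sham. *Acp5* was counted in MDMs at 67.0 CPM in sham, 181 CPM at 7 dpi and 13.4 CPM at 28 dpi under vehicle, and at 0, 455 and 134 CPM under PLX5622. *Atp6v0d2* was at 94.5, 173 and 91.8 CPM under vehicle and at 0, 447 and 249 CPM under PLX5622. Each 0 came from the 9 MDMs of sham PLX5622, with an upper 95% limit of 56.8 CPM. *Acp5* and *Atp6v0d2* were thus higher at 7 dpi than at 28 dpi under either diet. They were also higher under PLX5622 than under vehicle at both times after SCI.

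The rest of the target list was mixed, and *Ctsk*, on 118 and 5 UMIs, differed about as much as *Acp5* between 7 and 28 dpi under vehicle. Past 2-fold, 2 of 13 were higher and 0 lower at 7 dpi over sham (*Acp5*, and *Ctsk* at 1.49 on the log2 scale with the floor of 3 counts in place of 0 UMIs in sham), and 0 of 12 higher and 1 lower (*Acp5*) at 28 dpi over sham. For 28 dpi over 7 dpi, 0 of 13 were higher and 2 lower (*Acp5* at -3.75 and *Ctsk* at -4.04). Under PLX5622 over vehicle, 3 of 13 were higher and 0 lower at 7 dpi (*Acp5* at 1.33, *Atp6v0d2* at 1.37 and *Ctsk* at 1.09), and 3 of 12 higher and 0 lower at 28 dpi (*Acp5* at 3.32, *Atp6v0d2* at 1.44 and *Mcoln1*, a lysosomal channel, at 1.32). At the other end of the list stood *Ostm1* with -0.33 and *Clcn7* with 0.28 over sham at 7 and 28 dpi, *Atp6ap1* with 0.061 for 28 dpi over 7 dpi, and *Sqstm1* with -0.17 and *Ostm1* with -0.017 for PLX5622 over vehicle at 7 and 28 dpi. Over all genes, 4.09% were past 2-fold higher and 11.0% lower at 7 dpi over sham, and 1.53% and 5.63% at 28 dpi over sham. For 28 dpi over 7 dpi the shares were 3.29% and 3.60%. For PLX5622 over vehicle they were 1.83% and 2.17% at 7 dpi and 2.33% and 2.48% at 28 dpi. The list medians of the 5 comparisons were 0.26, -0.28, -0.31, 0.29 and 0.58, beside medians over all genes of -0.25, -0.25, 0.011, 0.0036 and 0.013.

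The 22 lipid-associated macrophage genes did not behave as 1 group. *Fabp5* was at 1806, 6282 and 2417 CPM in MDMs of sham, 7 dpi and 28 dpi vehicle cords and at 7752 and 4786 CPM at 7 and 28 dpi under PLX5622, so that it was lower at 28 dpi than at 7 dpi under both diets. *Fabp4*, its relative, was lower by 2.65 on the log2 scale at 28 dpi than at 7 dpi under vehicle and higher by 2.93 under PLX5622 over vehicle at 28 dpi. *Spp1* was higher than sham at both times (2.07 and 1.61), but it was 1.18 higher under PLX5622 at 7 dpi and 0.40 lower at 28 dpi (log2 ratio -0.40, -0.42 to -0.37), opposite to *Gpnmb* there. *Lgals3* stood at 1.72 and 1.00 over sham and at 0.65 and 0.85 for PLX5622 over vehicle.

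Other members of this list were opposite to *Gpnmb* between the times. *Lpl* (1.19), *Cd9*, a tetraspanin (1.23), *Itgax*, the integrin CD11c (1.93), and *Mmp12*, macrophage elastase (3.33), were past 2-fold higher at 28 dpi than at 7 dpi under vehicle, and *Fabp4*, *Cd36*, a scavenger receptor (-3.22), *Plin2*, a lipid droplet protein (-1.76), and *Fabp5* (-1.38) past 2-fold lower. *Trem2*, a lipid receptor, differed by 0.22 or less on the log2 scale in all 5 comparisons, and *Cd63*, a lysosomal tetraspanin, was between 0.13 and 0.38. At 7 dpi over sham 7 of 22 were past 2-fold higher (*Plin2* the highest at 2.66) and 2 lower (*Cd9* the lowest at -1.37), and at 28 dpi over sham 5 higher (*Mmp12* the highest at 3.02) and 0 lower (*Cd36* the lowest at -0.94). For PLX5622 over vehicle 4 were higher and 0 lower at 7 dpi (*Itgax* the highest at 2.01, *Apoe* the lowest at -0.39), and 2 higher (*Fabp4* and *Cd36* at 1.91) and 1 lower (*Lpl* at -1.20) at 28 dpi. Over all genes, 4.09% were past 2-fold higher and 11.0% lower at 7 dpi over sham, and 1.53% and 5.63% at 28 dpi over sham. For 28 dpi over 7 dpi the shares were 3.29% and 3.60%. For PLX5622 over vehicle they were 1.83% and 2.17% at 7 dpi and 2.33% and 2.48% at 28 dpi. *Spp1*, *Fabp5*, *Lgals3*, *Cd36* and *Mmp12* of this list, and *Ms4a7* and *Arg1* of the monocyte list, are also the markers from which the MDM cluster was named, so their levels in it are not independent of the name.

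Homeostatic microglia genes were at their highest in MDMs of sham mice. All 8 were past 2-fold lower at 7 dpi than in sham (*Siglech* the lowest at -3.89, *P2ry12* at -3.30 and *Tmem119* the highest at -1.30) and 6 of 8 at 28 dpi (*P2ry12* the lowest at -2.63, *Siglech* at -2.06, *Tmem119* at -1.55, and *Selplg* the highest at -0.59). At 28 dpi over 7 dpi, 4 of 8 were past 2-fold higher, with *Siglech* at 1.83 and *Tmem119* at -0.25. Under PLX5622 over vehicle 2 of 8 were past 2-fold lower at 7 dpi (*Tmem119* at -1.09 and *Siglech* at -1.06) with *Selplg* the highest at 0.084, and 0 at 28 dpi, where the genes ran from *Siglech* at -0.85 to *Tmem119* at -0.19. Over all genes, 11.0% were past 2-fold lower at 7 dpi over sham and 5.63% at 28 dpi over sham. At 28 dpi over 7 dpi, 3.29% of all genes were past 2-fold higher. For PLX5622 over vehicle, 2.17% were lower at 7 dpi and 2.48% at 28 dpi. Microglial transcripts were thus counted in a sham group of which 152 of 185 cells had no *Gpnmb* UMI, and the part of misplaced microglia in the ratios to sham was not tested.

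Ferritin genes were abundant in MDMs. *Ftl1*, ferritin light chain, was at 6885, 18389 and 11128 CPM in sham, 7 dpi and 28 dpi vehicle MDMs, and *Fth1*, ferritin heavy chain, at 16335, 25331 and 22484 CPM. Past 2-fold, 1 of 6 measured genes was higher (*Ftl1* at 1.42) and 1 lower (*Slc40a1*, ferroportin, at -1.18) at 7 dpi over sham, none in either direction at 28 dpi over sham (from *Slc48a1*, a heme transporter, at -0.78 to *Ftl1* at 0.69), and 1 lower (*Slc48a1* at -1.15, with *Slc40a1* the highest at 0.50) at 28 dpi over 7 dpi. Under PLX5622 over vehicle 1 was higher at 7 dpi (*Hmox1*, heme oxygenase, at 1.18, with *Blvrb* the lowest at -0.33) and 0 passed 2-fold at 28 dpi, from *Hmox1* at -0.18 to *Ftl1* at 0.64. Over all genes, 4.09% were past 2-fold higher and 11.0% lower at 7 dpi over sham, and 1.53% and 5.63% at 28 dpi over sham. For 28 dpi over 7 dpi, 3.60% were lower. For PLX5622 over vehicle the shares were 1.83% and 2.17% at 7 dpi and 2.33% and 2.48% at 28 dpi. Erythroid markers summed to 8.73 to 144 CPM in the MDM cluster.

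Most genes of monocytes and early macrophages that could be compared stood higher at 7 dpi than in sham under vehicle, several on few sham UMIs. Of the 8 with at least 100 UMIs, 7 were past 2-fold higher and 0 lower at 7 dpi over sham, with *Arg1*, arginase 1, the highest at 4.46 (2.60 to 7.51, against 2 UMIs in sham) and *Fn1*, fibronectin, the lowest at 0.31, and 6 of 9 were past 2-fold lower at 28 dpi than at 7 dpi, from *Arg1* at -7.16 (-9.45 to -5.61, with 3 UMIs at 28 dpi) to *Ccr2* and *Ms4a7*, with *Fn1* the highest at 0.76. *F13a1*, a coagulation factor subunit, was at 12.7, 175 and 3.39 CPM in sham, 7 dpi and 28 dpi MDMs under vehicle, and *Chil3*, a chitinase-like protein, at 2.12, 39.8 and 1.30 CPM. *Ms4a7* was at 185, 709 and 312 CPM. In sham, *Ly6c2*, *Ccr2* and *Chil3* rested on 4, 3 and 3 UMIs. *Ly6c2* had intervals of 0.768 to 7.22 CPM in sham and 5.37 to 7.66 CPM at 7 dpi, which overlapped. So did those of *Ccr2*, at 0.436 to 6.18 CPM and 4.18 to 6.23 CPM. At 28 dpi over sham 2 of 3 measured genes were past 2-fold higher (*Fn1* at 1.06 and *Pf4*, a chemokine, at 1.01, with *Ms4a7* the lowest at 0.75). Under PLX5622 over vehicle 3 of 8 were past 2-fold higher at 7 dpi (*Ccr2*, the receptor for monocyte entry, the highest at 2.08, *Pf4* the lowest at -0.96), and 0 of 3 passed at 28 dpi, where *Ms4a7* had 0.95 (0.84 to 1.07) and *Fn1* -0.88. Over all genes, 4.09% were past 2-fold higher at 7 dpi over sham and 1.53% at 28 dpi over sham. At 28 dpi over 7 dpi, 3.60% of all genes were past 2-fold lower. For PLX5622 over vehicle, 1.83% were higher at 7 dpi and 2.33% at 28 dpi.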

How the data were processed

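Single cell libraries were made with 10x 3' chemistry. Per the labels and matrix headers, the authors made UMI counts with Cell Ranger 3.0.2 and GRCm38 (mm10) and clustered cells with Seurat. The deposited table holds raw counts per gene and cell, with a cluster number for each cell, and 0 columns were left unused. No gene name beginning with mt- occurs in it. The 14 bulk samples were not analysed here. From the counts, UMIs of *Gpnmb* were summed per cluster and library and divided by all UMIs (CPM). A floor of 3 counts was used for 0 UMIs. List ratios needed 100 UMIs in both libraries together. Thinning to 1000 UMIs used the expected share of cells keeping a UMI. For ratios it used the expected level, which equals weighting cells alike with those under 1000 UMIs left out. The thinned and equally weighted ratios are thus not independent checks. Doublets were marked with the scrublet method in scanpy 1.11.5 at a rate of 0.8% per 1000 cells. It marked 0.397% to 7.88% of cells per library, and marked cells were kept except in 1 alternative.

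*Gpnmb*, the gene lists and the markers were chosen with earlier results of these data known. Genes were named as a fixed part of each list, the highest and lowest of each list per comparison, the 10 most alike genes by either measure, and the 5 least alike over cells. One list gene, and the counts of its list, are not reported here. *Csf1r*, *Cd9*, *Fabp4* and other list genes named beyond that rule, and the split of MDMs at 0 and 10 UMIs, were chosen after their values were seen. Alternatives were TMM (edgeR 4.0.16, R 4.3.3) and DESeq2 1.42.0 size factors, cells weighted alike, thinning, a minimum of 500 genes or of 3 UMIs, and leaving out marked doublets, shared barcodes or 100 ribosomal genes. The limit of 3000 genes was chosen after seeing the data. The scripts were tested on simulated data. Analyses used Python 3.11.15, numpy 2.4.6, scipy 1.17.1 and pandas 2.3.3.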

Additional observations from a re-analysis of the deposited data

Results flagged for a closer look

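In MDMs, the log2 ratio of 28 dpi over 7 dpi was -1.59 under vehicle and 0.17 under PLX5622, so the values had opposite signs. The difference was not tested, since each condition is 1 library, and the PLX5622 value turned to -0.52 among cells with at most 3000 genes. At 7 dpi, the log2 ratio of PLX5622 over vehicle was 0.16 in MDMs and -2.03 in microglia, whose PLX5622 value rests on 21 UMIs. That difference was not tested either. The thinned share of microglia with a UMI lay within or below the range of 4 clusters named for cells other than macrophages.

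The library matrices hold 254 barcodes that are not in the count table, all with fewer than 200 genes. *Gpnmb* was counted there with 8 UMIs in 2 barcodes at 28 dpi under vehicle (6211 CPM, 2682 to 12239) and with 5 UMIs in 4 of 29 barcodes at 7 dpi under PLX5622 (312 CPM, 101 to 729). In sham vehicle, 3 UMIs were counted in 121 such barcodes (41.5 CPM, 8.56 to 121).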

How the results depend on the processing

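No paired analysis was possible because each condition is 1 library. Of 171 values over 23 results, 113 stayed within the counting interval and 58 lay past it, and the cause was not tested. The sign differed from that of the sums for 28 dpi over sham in MDMs, which is near 0, in 7 alternatives, for 28 dpi over 7 dpi under PLX5622 in MDMs in 3, and for PLX5622 over vehicle at 28 dpi in microglia in 2. With DESeq2 size factors the log2 ratios in MDMs were 1.92 for 7 dpi over sham, 0.30 for 28 dpi over sham, -1.62 for 28 dpi over 7 dpi, and 0.11 and 1.86 for PLX5622 over vehicle at 7 and 28 dpi, and -0.62 for 28 dpi over 7 dpi in microglia. With TMM the same were 1.92, 0.30, -1.62, 0.096, 1.86 and -0.61. The log2 ratio of TMM library sizes to sham, less that of plain totals, was -0.35 and -0.32 in MDMs and -0.63 and -0.50 in microglia at 7 and 28 dpi, and every gene's ratio to sham stood higher by that amount. Without marked doublets, 28 dpi over sham was 0.051, 28 dpi over 7 dpi -1.55, and PLX5622 over vehicle 0.13 and 1.85. With at least 500 genes, 28 dpi over 7 dpi was -1.61. Without ribosomal genes, PLX5622 over vehicle at 7 dpi was 0.13, and 28 dpi over 7 dpi under PLX5622 was 0.21.

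With at most 3000 genes, the MDM ratios were 5.30 and 3.78 over sham, -1.52 for 28 dpi over 7 dpi, 1.18 for PLX5622 over vehicle at 28 dpi and -0.52 for 28 dpi over 7 dpi under PLX5622, and the shares of MDMs were 8.50% in sham vehicle, 0% in sham PLX5622 and 76.1% at 7 dpi under PLX5622. After thinning, the MDM ratios were 2.72 and 1.14 over sham, 1.61 for PLX5622 over vehicle at 28 dpi and -0.13 for 28 dpi over 7 dpi under PLX5622, and in microglia -1.01 for PLX5622 over vehicle at 7 dpi. The thinned shares were 12.4%, 76.3% and 56.5% of MDMs under vehicle and 76.9% and 69.4% after SCI under PLX5622, and 14.8%, 11.2%, 4.79% and 11.3% of microglia at 7 and 28 dpi under vehicle and then PLX5622. With cells weighted alike, the MDM ratios were 2.78 and 1.22 over sham, -1.56 for 28 dpi over 7 dpi, 1.66 for PLX5622 over vehicle at 28 dpi and -0.067 for 28 dpi over 7 dpi under PLX5622, and in microglia -0.86 for 28 dpi over 7 dpi, and -0.44 and 0.25 for PLX5622 over vehicle. At 3 or more UMIs, the shares were 12.4%, 79.0% and 54.4% of MDMs under vehicle and 73.3% at 28 dpi under PLX5622, and 0%, 5.71% and 3.07% of microglia under vehicle and 1.64% and 4.76% after SCI under PLX5622.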

Other observations

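At 28 dpi under vehicle, the 959 MDMs with 10 or more *Gpnmb* UMIs held *Fabp5* at 3379 CPM, *Psap* at 3473 CPM and *Csf1r* at 562 CPM, against 1419, 2024 and 950 CPM in the 851 MDMs with 0, at median depths of 5348 and 3262 UMIs. These genes were named with their r over the same vehicle cells known, so their direction there was fixed in advance. Under PLX5622 at 28 dpi, the 86 high MDMs held *Fabp5* at 6003 CPM and *Csf1r* at 299 CPM, against 1947 and 1142 CPM in 27 MDMs with 0.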
